A study of Rattus norvegicus with 20 samples.

Results

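Expression of the collagen genes was examined in microvessels isolated from the kidneys of male rats. Every row whose gene name consists of Col, a type number, the letter a and a chain number was taken, which gave 43 of the 16672 rows of the deposited table. The 43 genes were set into 11 fibrillar collagens, 6 microfibrillar collagens of type VI, 9 FACIT collagens (fibril-associated collagens with interrupted triple helices), 6 basement membrane collagens of type IV, 3 network-forming collagens of types VIII and X, 2 multiplexins, 3 transmembrane collagens and 3 others (types VII, XXVI and XXVIII). Col21a1 and Col25a1 were not analysed here.

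The groups, with 5 male rats in each, were SS Ccl2-/- rats on 4.0% NaCl, SS Ccl2-/- rats on 0.3% NaCl, Dahl salt-sensitive (SS) rats on 4.0% NaCl and SS rats on 0.3% NaCl, each on the diet for 2 weeks. The Dahl SS rat is a strain in which dietary salt raises blood pressure and injures the kidney, and all 4 groups have this background. Ccl2 encodes a chemokine that attracts monocytes, and the series asks about its role in the myogenic tone of kidney microvessels. The labels give neither the nature of the Ccl2 mutation nor the age of the rats. Below, null and SS rats are named by genotype, and high and low salt stand for 4.0% and 0.3% NaCl.

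Collagens are triple helices of 3 alpha chains, and each Col gene encodes one such chain. Fibrillar collagens of types I, III and V form the fibrils of the vessel adventitia and the interstitium, and FACIT collagens sit on the surface of such fibrils. Type VI chains form beaded microfilaments near basement membranes, and type IV chains form the network of the basement membrane itself, with a separate set of chains in the glomerulus. In the kidney the fibrillar chains are made mainly by fibroblasts and related perivascular cells, and their accumulation is a hallmark of fibrosis.

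The libraries held 22035178 to 47851233 reads, of which mitochondrially encoded genes took 6.90% to 42.5%, most in SS rats on low salt. Values are the authors' normalized counts, that is, reads divided by a factor for each library. Vessel markers were present in every library: the smooth muscle gene Myh11 ranged over 12056 to 18064 in null rats on high salt, 10892 to 17746 in null rats on low salt, 6467 to 13909 among SS rats on high salt and 9116 to 14494 in SS rats on low salt. The endothelial gene Cdh5 ranged over 2699 to 3566 in null rats on high salt, 2278 to 2849.6 in null rats on low salt, 1192 to 2569 among SS rats on high salt and 2056 to 3101 in SS rats on low salt. SS rat 1 on high salt had the lowest value of all rats for both genes. Tubule transcripts were present too, with Umod at 91217 ± 7943 in null rats and 76634 ± 19819 in SS rats on high salt, and 130763 ± 40564 in null rats and 180834 ± 31895 in SS rats on low salt (mean ± SD, n = 5 each). In such a tissue, fewer cells of a type and less RNA per cell cannot be told apart. The library of SS rat 1 on high salt lay farthest from the other rats of its group (root mean square distance 0.623 on the log2 scale over all tested genes), and null rat 4 on low salt lay farthest within its group (0.462), so results were also computed without both. SS rat 3 on low salt, at 0.470, lay as far out in its more spread group, and each rat was also left out in turn.

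Ccl2 had 79.4, 99.5, 107, 128 and 77.5 normalized counts in null rats on high salt, against 223, 426, 226, 167 and 384 in SS rats on high salt. The groups did not overlap, and the log2 difference was -1.46 (exact two-sided permutation test, p = 0.00794, the smallest that 5 against 5 allows). On low salt it had 218, 161, 169, 124 and 194 in null rats, against 199, 138, 190.2, 196 and 212 in SS rats, a log2 difference of -0.12 (exact two-sided permutation test, p = 0.516). The Ccl2 transcript therefore did not separate the genotype labels on low salt, and the labels do not say whether the mutation removes the transcript.

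Summed over each class, fibrillar, type VI and FACIT transcripts were lowest in SS rats on low salt. The fibrillar sum averaged 26392 ± 2908 normalized counts in null rats on high salt, 21104 ± 1336 in null rats on low salt, 26715 ± 3569 among SS rats on high salt and 13729 ± 2399 in SS rats on low salt (SD, n = 5 each). High salt over low salt, this is a ratio of 1.25 in null rats and 1.95 in SS rats. The type VI sum averaged 15751 ± 2128 in null rats on high salt, 11369 ± 744 in null rats on low salt, 14737 ± 3741 among SS rats on high salt and 6649 ± 1532 in SS rats on low salt. Its salt ratio was 1.39 in null rats and 2.22 in SS rats. The FACIT sum gave salt ratios of 1.37 in null rats and 1.90 in SS rats, and the type IV sum gave 1.10 in null rats and 1.16 in SS rats. The transmembrane sum had a larger ratio in null rats, 1.25 against 1.16 in SS rats, and the multiplexin sum had 0.87 in null rats and 1.05 in SS rats. SS rats on low salt were the low group in the first 3 of these classes: their highest rat, at 16326 for the fibrillar sum and 8694 for the type VI sum, lay below every rat of the other groups. So it was for the small network-forming sum, at most 394 in SS rats on low salt and at least 440 in the other groups. Its salt ratio was 1.42 in null rats and 2.08 in SS rats, and that of the sum of the 3 others was 1.55 and 2.08. For type IV, all 4 groups overlapped, with 39113 to 47982 in null rats on high salt and 31451 to 44332 in SS rats on low salt.

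**Figure D1:**
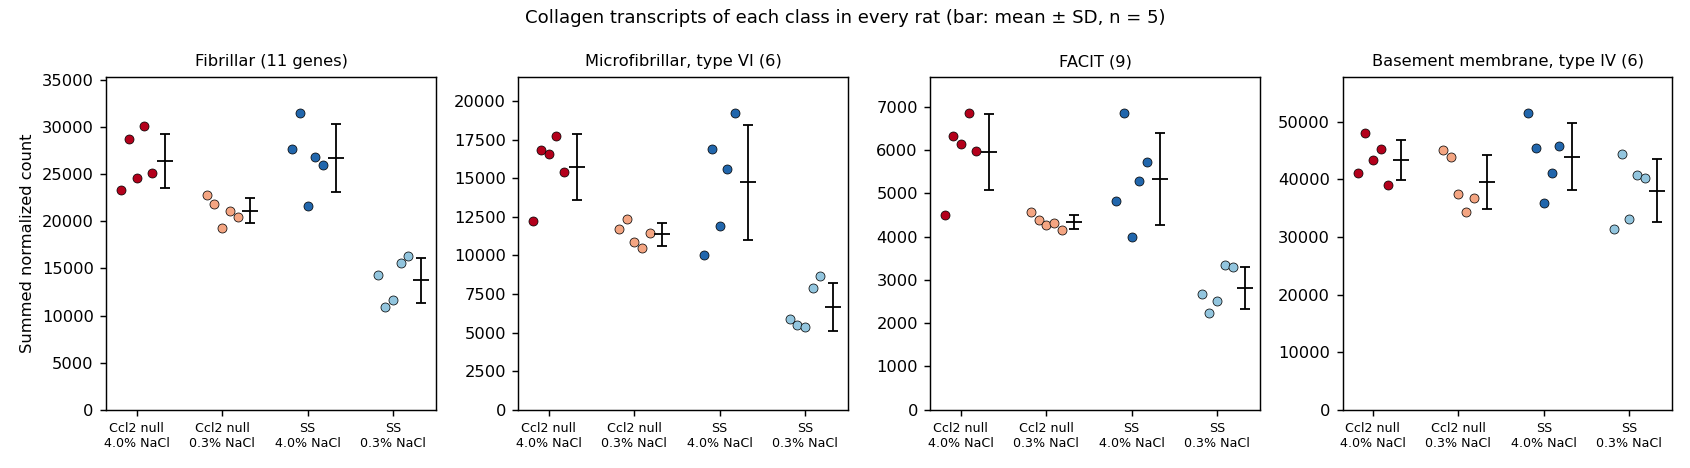
Summed normalized count of the collagen genes of 4 classes in each rat (points), with the mean and SD of the 5 rats of a group (bar). Fibrillar, type VI and FACIT sums of SS rats on low salt lie below those of the other 3 groups, while the type IV sums of all 4 groups overlap.

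Each gene was tested on log2 of the normalized count plus 1 with limma across all 16153 genes that passed the filter on low values, a set that holds all 43 collagens, and a gene was called at a Benjamini-Hochberg adjusted p under 0.05, with log2 changes given ± SE. On high salt against low salt in SS rats, 24 of the 43 collagens were higher and 0 were lower, and the median log2 change of the 43 was 0.68. Over all tested genes 9.52% were called higher and 7.73% lower in that comparison, and the median change was -0.004. The lower calls numbered 0 with limma, edgeR and DESeq2, and 1 gene was lower at an unadjusted p under 0.05. By class, 10 of 11 fibrillar, 4 of 6 type VI, 5 of 9 FACIT, 2 of 3 network-forming, 1 of 2 multiplexin, 1 of 3 other, 1 of 6 type IV and 0 of 3 transmembrane genes were called higher. The median log2 change was 0.82 for the fibrillar genes, 1.17 for type VI, 0.68 for FACIT and 0.24 for type IV. In 15 of the 43 genes each SS rat on high salt lay above each SS rat on low salt, against 5.02% of all genes, and in 0 it lay below, against 4.3%. Leaving out 1 rat at a time left 19 to 24 higher calls.

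The same diets in null rats gave 4 higher and 3 lower calls among the 43 collagens, with a median log2 change of 0.11. Over all genes, 3.06% were called higher and 2.45% lower. The rats of the diets did not overlap in 7 collagens that were higher and 3 that were lower, against 5.6% and 5.18% of all genes. The higher call of Col5a2 remained in every leave-one-out fit, and each of the other 6 higher or lower calls was lost in 1 to 13 of these fits. Leaving out null rat 1, 2, 3 or 5 on low salt, or null rat 3 or 5 on high salt, left 1 higher call each time, and leaving out null rat 2 or 4 on high salt or SS rat 4 on low salt left 2. Leaving out SS rat 1 on high salt gave 9 higher calls. The lower calls fell to 1 without null rat 1, 2 or 3 on high salt or null rat 1, 2, 4 or 5 on low salt, and to 0 without null rat 5 on high salt.

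**Figure D2:**
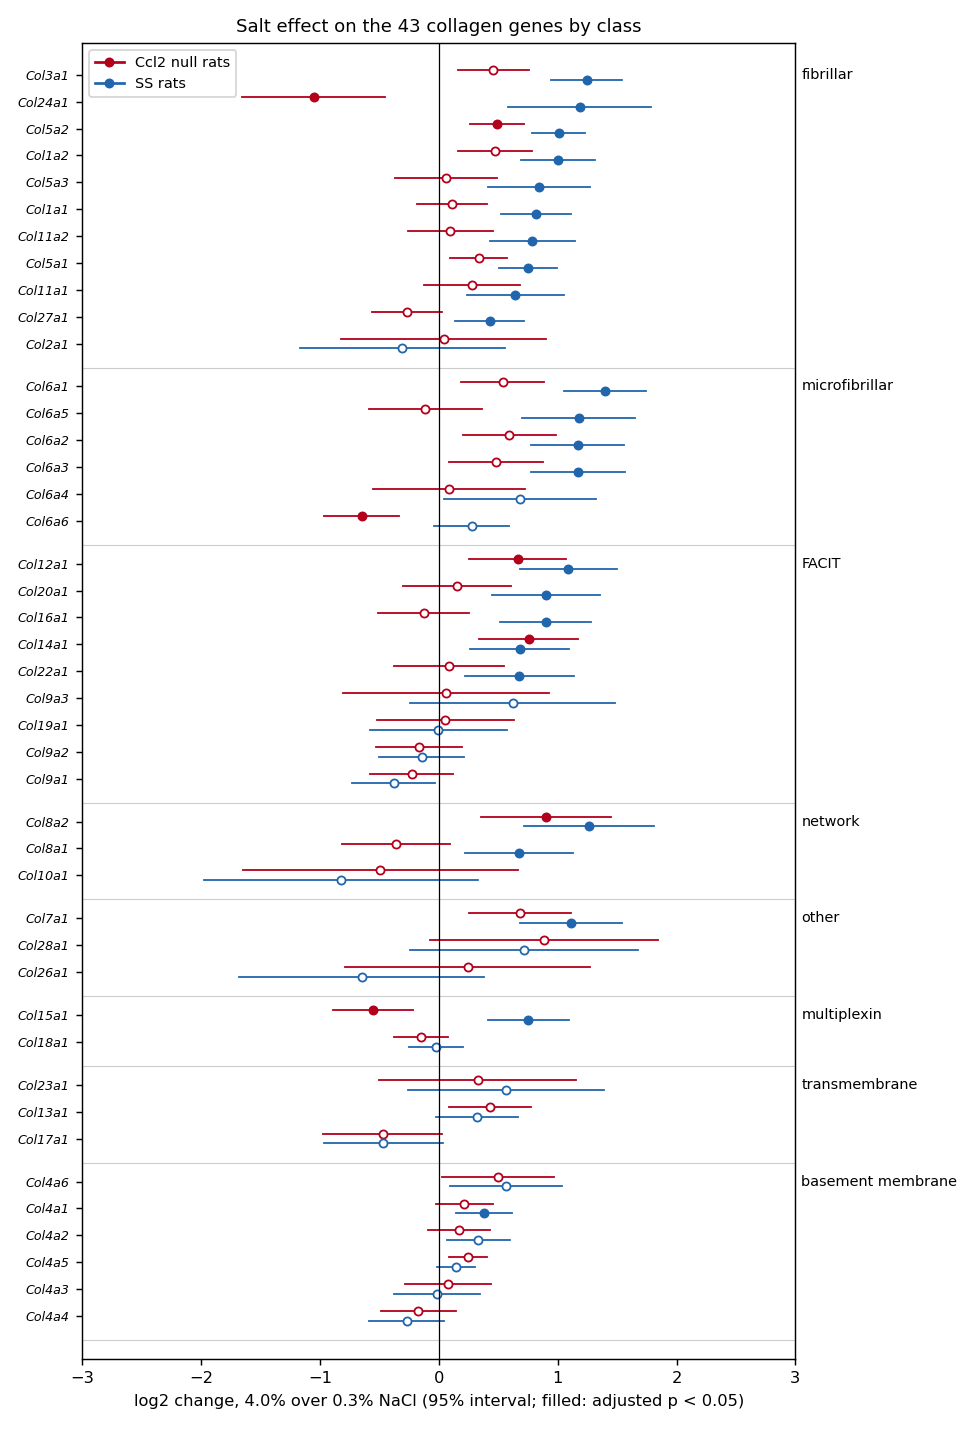
Log2 change of each of the 43 collagen genes, 4.0% over 0.3% NaCl, with its 95% interval, in null rats (red, upper point of each pair) and SS rats (blue, lower point), grouped by class. Filled points passed an adjusted p of 0.05: 4 genes were called higher and 3 lower in null rats, against 24 higher in SS rats. At an unadjusted p under 0.05 by limma, 14 were higher and 3 lower in null rats, against 27 and 1 in SS rats.

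Between genotypes on low salt, 8 of the 43 collagens were higher in null rats and 0 were lower, with a median log2 difference of 0.50. Over all genes only 0.452% were called higher and 0.105% lower in this comparison. The 8 were the fibrillar Col1a1, Col1a2, Col3a1, Col5a1 and Col5a2 and the type VI Col6a1, Col6a2 and Col6a3, with log2 differences of 0.61 to 0.91. The median log2 difference was 0.61 for the fibrillar genes, 0.85 for type VI and 0.43 for FACIT. This comparison shares the SS rats on low salt with the salt comparison in SS rats. In 10 of the 43 every null rat exceeded every SS rat, against 2.1% of all genes, and in 0 every null rat lay below, against 1.59%. With edgeR 7 were called higher, beside 50 of all 16153 genes, and with DESeq2 14, beside 359 of 16151. The lower calls were 0 with all 3 tools, and 0 at an unadjusted p under 0.05. Each of the 8 had an adjusted p of 0.021 to 0.038, and single rats moved the count. It fell to 0 without SS rat 3 or null rat 2, 4 or 5, all on low salt, to 3 without SS rat 2 or null rat 1 on low salt and to 4 without SS rat 1 on low salt. It was 14 without SS rat 4 on low salt or SS rat 1 on high salt, and 12 without SS rat 5 on low salt. Over these leave-one-out fits the log2 difference of Col3a1 ran from 0.58 to 0.79 and that of Col6a1 from 0.83 to 1.04.

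On high salt 3 collagens were higher and 4 were lower in null rats than in SS rats, against 3.7% and 4.82% of all genes, and the median log2 difference of the 43 was 0.05. The higher ones were Col26a1, Col13a1 and Col23a1, and the lower ones Col24a1, Col6a6, Col15a1 and Col8a1. No overlap between the genotypes was seen in 1 higher gene, Col26a1, and 2 lower genes, Col24a1 and Col15a1, against 3.89% and 4.52% of all genes. None of the 8 genes that differed on low salt was among them. Their 95% intervals on high salt included 0, for example -0.39 to 0.21 for Col3a1, -0.32 to 0.26 for Col1a1 and -0.30 to 0.40 for Col6a1. Of these 8, Col3a1 passed the test of the difference between the salt effects, which is also the test of the difference between the genotype effects on the 2 diets. The higher calls fell to 0 without SS rat 1 on high salt and to 1 without SS rat 2 or null rat 4 or 5 on high salt.

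**Figure D3:**
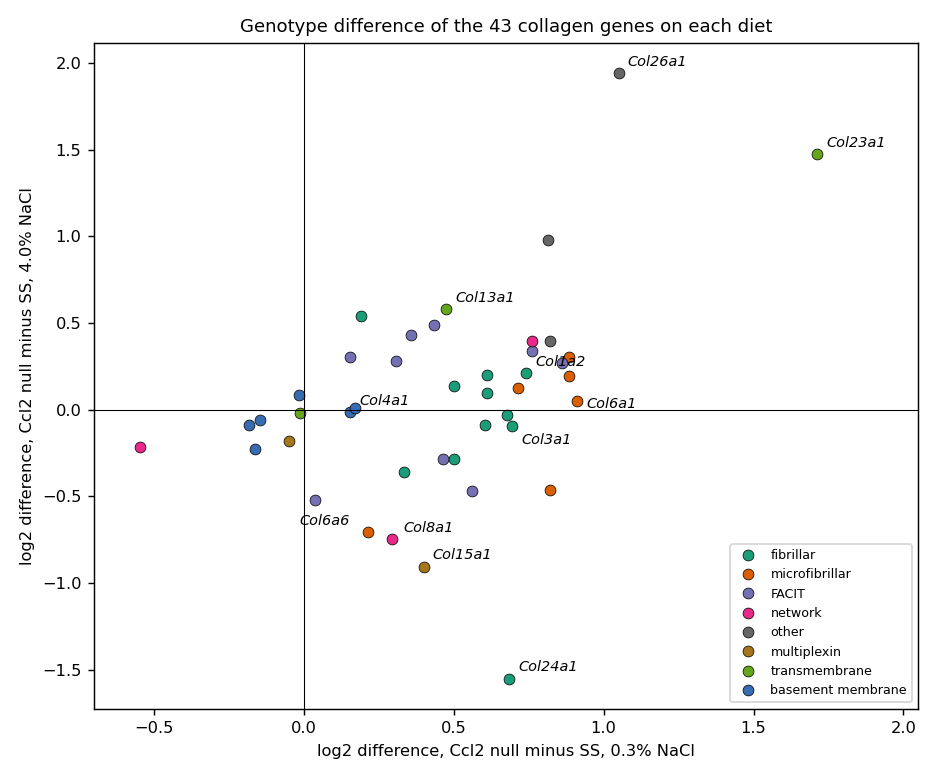
Log2 difference of null minus SS rats for each of the 43 collagen genes on 0.3% NaCl (horizontal) and 4.0% NaCl (vertical), which are differences between separate sets of rats, coloured by class. Col1a1, Col1a2, Col3a1, Col6a1, Col6a2 and Col6a3 lie right of 0 on low salt and closer to 0 on high salt, and Col24a1, Col15a1, Col8a1 and Col6a6 lie below 0 on high salt.

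The difference between the salt effects of the genotypes was itself tested. In 6 collagens the salt effect was lower in null than in SS rats, and in 0 it was higher, against 1.76% and 0.774% of all genes. The 6 were Col24a1, Col15a1, Col6a5, Col16a1, Col6a6 and Col3a1, with differences of -2.24 to -0.79 on the log2 scale. The median difference was -0.69 for the fibrillar genes, -0.77 for type VI, -0.42 for FACIT and 0.01 for type IV. The type IV value became -0.25 with total scaling, which shifted the median over all genes by -0.27. The higher calls were 0 with limma, edgeR and DESeq2 and 0 at an unadjusted p under 0.05. Lower calls numbered 8 with edgeR and 11 with DESeq2, beside 325 and 541 over all genes. Leaving out null rat 5 on low salt left 2 lower calls, and leaving out null rat 1 or 5 on high salt or SS rat 2 on either diet left 3. The count was 9 without SS rat 3 or 4 on high salt, SS rat 4 on low salt or null rat 3 on low salt. Col24a1 and Col15a1 were called in every one of these fits, with highest adjusted p-values of 0.0184 and 0.0171.

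Type III collagen, a fibrillar collagen whose chains all come from Col3a1, is rich in distensible tissue such as vessel walls, and its transcript rose with salt in SS rats. Col3a1 had 7567, 9636, 8027, 10960.4 and 8163 normalized counts in null rats on high salt, and 7371, 6641, 6371, 5651 and 6051 in null rats on low salt. SS rats had 9073, 11931, 7518, 9733 and 9053 on high salt and 4376, 2849, 3241, 4557 and 5202 on low salt. No SS rat on high salt overlapped an SS rat on low salt, and no null rat on low salt did either, while the genotypes overlapped on high salt. The log2 change with salt was 0.46 ± 0.14 (adjusted p = 0.0604) in null rats and 1.24 ± 0.14 (adjusted p = 1.06e-05) in SS rats (limma, Benjamini-Hochberg). On low salt null rats exceeded SS rats by 0.70 ± 0.14 (adjusted p = 0.0318), and the salt effects differed by -0.79 ± 0.20 (adjusted p = 0.0403). Without SS rat 1 on high salt and null rat 4 on low salt together, that last difference was -0.84 with adjusted p = 0.0548, and its call was lost in 10 of the leave-one-out fits (highest adjusted p 0.0774).

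Type I collagen, the main load-bearing fibril of the adventitia, is built from the chains of Col1a1 and Col1a2. Col1a2 had 4141, 5736, 5138, 6233 and 4902 normalized counts in null rats on high salt, and 4189, 4064, 3638, 3341 and 3491 in null rats on low salt. The values in SS rats were 4162, 5384, 3591, 5089 and 4347 on high salt and 2654, 1714, 1585, 2592 and 2950.3 on low salt. Again the lowest values were in SS rats on low salt, with no overlap with SS rats on high salt or null rats on low salt. The log2 change of Col1a2 with salt was 0.47 ± 0.15 (adjusted p = 0.0641) in null rats, and it rose by 1.00 ± 0.15 (adjusted p = 0.000155) in SS rats. Col1a1 had 3783, 4884, 3852, 4908 and 4031 normalized counts in null rats on high salt, and 4509.6, 4339, 3215, 3780.2 and 4029.9 in null rats on low salt. On high salt SS rats had 5285, 5250.1, 3433, 3942 and 4133, and on low salt 2374, 1938, 2076, 2940.4 and 3253. All SS rats on high salt exceeded those on low salt, and the null rats overlapped. Col1a1, shown here because of its partner and after its values were seen, rose with salt in SS rats (0.82 ± 0.14, adjusted p = 0.00046). In null rats its change was 0.11 ± 0.14, with a 95% interval of -0.18 to 0.40.

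The promoter of Col1a2 is given because the chain is a called member of the main fibril collagen and the window holds both TATAAA and CCAAT. It is the RefSeq window of GRCr8 from 250 bases before to 50 after the annotated start, at chr4:33518307-33518606, plus strand, written 5′ to 3′ with motif matches in capitals (CCAAT on either strand, so also ATTGG, and TATAAA).
Col1a2: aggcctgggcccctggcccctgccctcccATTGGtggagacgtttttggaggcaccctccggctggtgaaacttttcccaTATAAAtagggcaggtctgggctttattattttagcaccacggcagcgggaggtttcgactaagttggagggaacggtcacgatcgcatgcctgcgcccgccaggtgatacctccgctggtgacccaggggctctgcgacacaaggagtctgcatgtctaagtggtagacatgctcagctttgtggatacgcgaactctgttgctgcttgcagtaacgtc
Of the 43 collagen genes, 35 had such a window, in 38 windows of 300 bases. The letters CCAAT were found in 12 of the 38 (31.6%), against 37.5% of all 33469 windows. GGGCGG, the GC box, was in 20 (52.6%), against 33.1%. TATAAA was in 4 (10.5%), against 14.2%. TGANTCA, the core letters of an AP-1 site, was in 1 (2.63%), against 7.33%. Both strands were searched, and none of these strings contains another. These are counts of letters in a window and say nothing about the binding of a factor.

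Type V collagen nucleates type I fibrils and limits their width, and its chains changed in the same groups. Col5a2 had 3858, 3983, 3433, 3904 and 3685 normalized counts in null rats on high salt, and 2812, 2675, 2539, 2814 and 2571 in null rats on low salt. Among SS rats the counts were 3318, 4250.2, 2836, 3837 and 3563 on high salt and 1817, 1329, 1595, 2147 and 2001 on low salt. The SS rats on low salt again lay below all other rats, and null rats on high salt did not overlap null rats on low salt. Col5a2 rose in both genotypes, by 0.49 ± 0.11 (adjusted p = 0.0128) in null rats and 1.01 ± 0.11 (adjusted p = 4.05e-06) in SS rats, and was the one fibrillar gene called higher with salt in null rats. In every leave-one-out fit both calls remained, with adjusted p of at most 0.0352. Col5a2 is the gene next to Col3a1 on the RefSeq map.

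Col5a1 had 1284, 1605, 1439.9, 1421 and 1395 normalized counts in null rats on high salt, and 1132, 1248, 964, 1262 and 1063 in null rats on low salt. Its counts in SS rats were 1387, 1389, 866, 1363 and 1302 on high salt and 756, 741, 606, 839.8 and 766 on low salt. SS rat 3 stood below the other 4 rats on high salt, though still above every SS rat on low salt. Col5a1 rose by 0.75 ± 0.12 (adjusted p = 0.000205) with salt in SS rats and was higher in null than in SS rats on low salt (0.61 ± 0.12, adjusted p = 0.024). Col5a3, the third chain of type V, had a log2 change with salt of 0.06 ± 0.21 (adjusted p = 0.888) in null rats and rose by 0.84 ± 0.21 (adjusted p = 0.00723) in SS rats.

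Among the other fibrillar genes, the type XI chains Col11a1 and Col11a2, which in cartilage regulate type II fibrils, rose with salt in SS rats by 0.64 ± 0.20 (adjusted p = 0.0267) and 0.79 ± 0.17 (adjusted p = 0.00331). Col27a1, a fibrillar collagen of developing cartilage, rose by 0.43 ± 0.14 (adjusted p = 0.0391), the smallest of the 10 fibrillar calls. Col11a1 and Col27a1 lost the call in 5 and 7 of the leave-one-out fits. The type II gene Col2a1, the main cartilage collagen, was low in all groups, averaging 25.5 ± 8.48 in null rats and 19.7 ± 11.2 in SS rats on high salt, and 24 ± 5.93 in null rats and 22.7 ± 10.7 in SS rats on low salt. It was the only fibrillar gene without a call in any comparison.

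Col24a1, a fibrillar chain with invertebrate-like features that in the mouse is found with type I fibrils in bone and eye, was singled out after its values were seen. Col24a1 had 52.9, 50.2, 56.8, 97.7 and 66 normalized counts in null rats on high salt, and 122, 114, 98.9, 181 and 156 in null rats on low salt. In SS rats it had 418, 214, 217, 104 and 109 on high salt and 89.7, 102, 70.6, 91.8 and 59.7 on low salt. SS rat 1 on high salt had the highest value, and no null rat on high salt reached any of the 5 SS rats on high salt. With salt, Col24a1 fell in null rats (-1.05 ± 0.29, adjusted p = 0.0367) and rose in SS rats (1.18 ± 0.29, adjusted p = 0.00733). Null rats had lower values on high salt (-1.55 ± 0.29, adjusted p = 0.00271), and the salt effects differed by -2.24 ± 0.41 (adjusted p = 0.00811). Without SS rat 1 on high salt and null rat 4 on low salt, these were -0.94, 0.89, -1.26 and -1.83, and all 4 were still called. Its salt call in null rats was lost in 8 of the leave-one-out fits (highest adjusted p 0.0887).

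Col6a1, Col6a2 and Col6a3 encode the 3 main chains that assemble into type VI microfilaments, which link cells to the surrounding matrix. Col6a1 had 3884, 5305, 4999.9, 5575 and 4875 normalized counts in null rats on high salt, and 3469, 3749, 3284, 2931 and 3486 in null rats on low salt. SS rats had 3171, 5725, 4016, 5154 and 6269 on high salt and 1639, 1427, 1411, 2215 and 2529 on low salt. In each of the other groups every rat lay above the highest SS rat on low salt. The log2 change of Col6a1 with salt was 0.54 ± 0.17 (adjusted p = 0.0599) in null rats, and it rose by 1.40 ± 0.17 (adjusted p = 1.66e-05) in SS rats, the largest change among the 24 collagens called. On low salt null rats were higher than SS rats by 0.91 ± 0.17 (adjusted p = 0.022).

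Col6a2 had 4444, 6746, 5719.6, 5853 and 5349 normalized counts in null rats on high salt, and 3868, 3838, 3569.8, 3485 and 3715 in null rats on low salt. The values in SS rats were 2813, 4962, 3877, 5236 and 6525 on high salt and 1752, 1499, 1562, 2811 and 2785 on low salt. The 2 highest SS rats on low salt came close to SS rat 1 on high salt but did not reach it. Col6a3 had 2941, 3841, 4982, 5466 and 4569 normalized counts in null rats on high salt, and 3229, 3559, 2889.6, 2765 and 2885 in null rats on low salt. On high salt SS rats had 2583, 4947, 2716, 4146 and 4943, and on low salt 1554, 1216, 1451, 1982 and 2271. For Col6a3 too the SS rats on low salt were the lowest 5 of all. Col6a2 rose by 1.17 ± 0.19 (adjusted p = 0.000268) and Col6a3 by 1.17 ± 0.19 (adjusted p = 0.000298) with salt in SS rats. On low salt, null rats were higher by 0.88 ± 0.19 (adjusted p = 0.0355) for Col6a2 and 0.88 ± 0.19 (adjusted p = 0.0379) for Col6a3. With edgeR the low-salt call of Col6a2 had an adjusted p of 0.0524.

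The Col6a1 window is shown because it was the only collagen window with the AP-1 letters. It lies at chr20:11905440-11905739, plus strand of GRCr8, 5′ to 3′, with the match to TGANTCA in capitals.
Col6a1: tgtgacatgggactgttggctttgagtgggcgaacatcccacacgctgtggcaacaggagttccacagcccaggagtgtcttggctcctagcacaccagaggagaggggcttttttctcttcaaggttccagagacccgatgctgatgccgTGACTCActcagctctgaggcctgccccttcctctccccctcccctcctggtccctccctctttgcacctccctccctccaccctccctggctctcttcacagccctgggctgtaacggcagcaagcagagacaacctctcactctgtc
It holds none of the other 3 motifs.

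The further type VI chains, Col6a4, Col6a5 and Col6a6, are thought to take the place of the alpha 3 chain. Col6a5 had 93.7, 132, 103, 125 and 92.1 normalized counts in null rats on high salt, and 127, 106, 134, 103 and 116 in null rats on low salt. Among SS rats the counts were 94, 144, 129, 187 and 227 on high salt and 55.8, 47.6, 47.8, 89.7 and 106 on low salt. SS rat 1 on high salt lay within the range of SS rats on low salt, and the other 4 lay above it. Col6a5 rose by 1.18 ± 0.23 (adjusted p = 0.00145) with salt in SS rats, and its salt effect was lower in null rats (-1.29 ± 0.32, adjusted p = 0.0361), a call lost in 9 leave-one-out fits (highest adjusted p 0.0669). Col6a6 had 852, 763, 752, 673 and 459.7 normalized counts in null rats on high salt, and 972, 1105, 969, 1146 and 1193 in null rats on low salt. Its counts in SS rats were 1358, 1107, 1107, 844 and 1254 on high salt and 838, 1265, 859, 752 and 988 on low salt. All 5 null rats on high salt lay below all 5 on low salt, while the SS rats overlapped. Col6a6, chosen after its values were seen, fell with salt in null rats (-0.65 ± 0.15, adjusted p = 0.0172). In SS rats its value was 0.28 ± 0.15 (adjusted p = 0.223). On high salt it was lower in null than in SS rats (-0.71 ± 0.15, adjusted p = 0.00806), with one null rat above the lowest SS rat, and the salt effects differed by -0.92 ± 0.22 (adjusted p = 0.0246). The null salt call of Col6a6 was lost without null rat 5 on high salt (adjusted p = 0.0511), and the difference in salt effects without null rat 5 on low salt (0.0513). Col6a4 averaged 19.0 to 32.5 in the 4 groups and was called in no comparison.

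**Figure D4:**
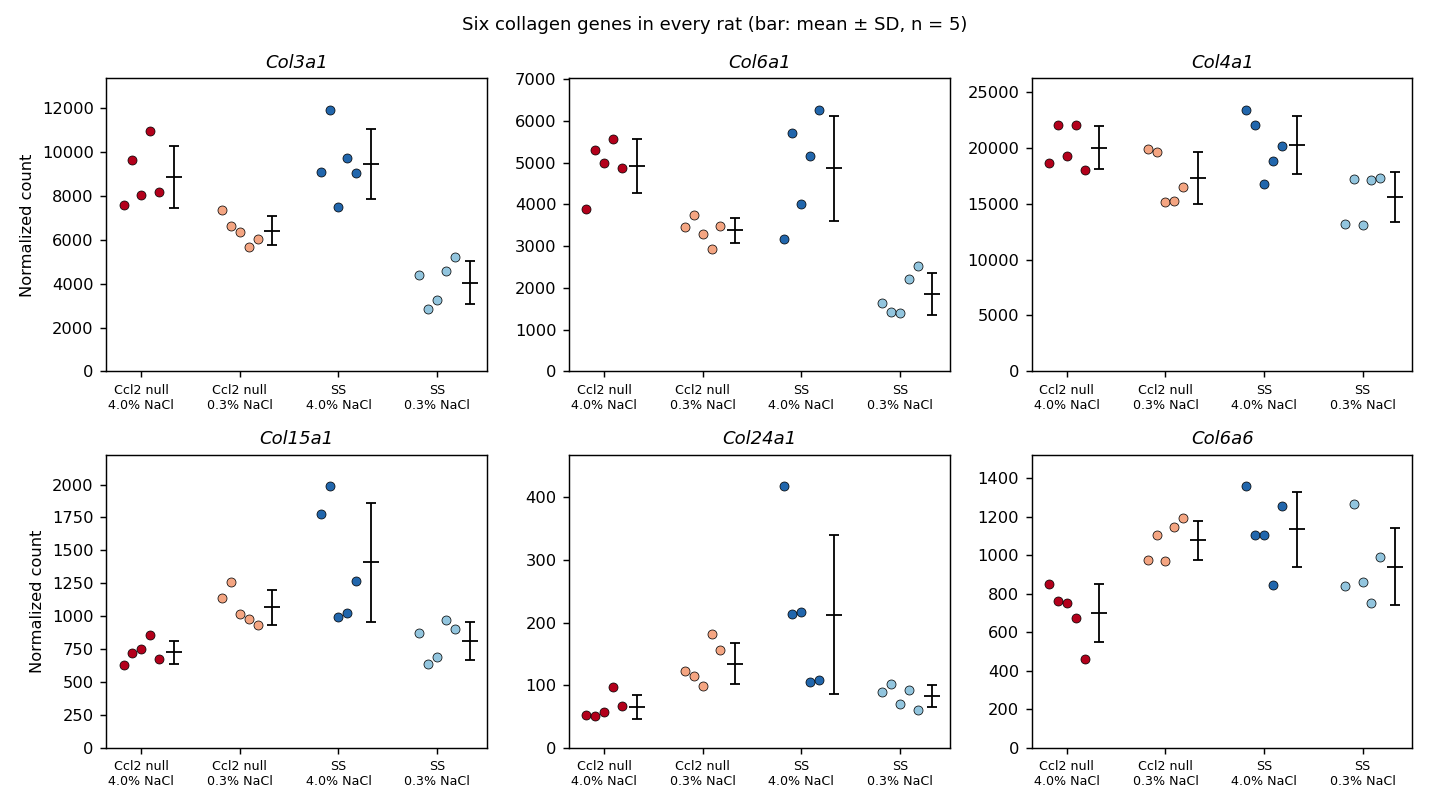
Normalized count of Col3a1, Col6a1, Col4a1, Col15a1, Col24a1 and Col6a6 in each rat (points) with the mean and SD of the 5 rats of each group (bar). Col3a1 and Col6a1 are lowest in SS rats on low salt, whereas Col15a1, Col24a1 and Col6a6 are lowest, on average, in null rats on high salt.

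Of the 9 FACIT genes, 5 rose with salt in SS rats, with a median log2 change of 0.68. Col12a1 had 2993, 4578, 4384, 5135 and 4312 normalized counts in null rats on high salt, and 3130.4, 2875, 2847, 2127 and 2443 in null rats on low salt. In SS rats it had 2382, 5001, 2338, 3522 and 4188 on high salt and 1565, 1197, 1228, 1896 and 2169 on low salt. In SS rats the groups did not overlap, and in null rats the lowest rat on high salt lay within the low-salt range. Col12a1, whose protein bridges type I fibrils and other matrix, rose in null rats (0.66 ± 0.20, adjusted p = 0.0493) and in SS rats (1.09 ± 0.20, adjusted p = 0.000739). The null call was lost in 12 of the leave-one-out fits (highest adjusted p 0.119) and with total scaling without mitochondrial genes (0.0582) or a replicate block (0.0517). Col14a1, a related FACIT of type I fibrils, is given after its values were seen. Col14a1 had 260.1, 401, 269, 236 and 297 normalized counts in null rats on high salt, and 168, 161, 165, 193 and 166 in null rats on low salt. SS rats had 136, 184, 231, 354 and 213 on high salt and 119, 117, 103, 195 and 144 on low salt. The null rats on high salt exceeded all those on low salt, and the SS rats overlapped. Its log2 change was 0.76 ± 0.20 (adjusted p = 0.0313) in null rats and 0.68 ± 0.20 (adjusted p = 0.0225) in SS rats, and the difference between them was 0.08 ± 0.28 (95% interval -0.51 to 0.66). Leaving out single rats ended the call in null rats in 7 fits (highest adjusted p 0.0829) and that in SS rats in 4 (0.072).

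Col16a1 had 568, 690.0, 792, 837 and 633 normalized counts in null rats on high salt, and 671, 726, 668, 1053 and 747 in null rats on low salt. The values in SS rats were 1697, 1144, 764, 809 and 693 on high salt and 529, 430.2, 568, 588 and 483 on low salt. Each SS rat on high salt exceeded each on low salt, and the null rats overlapped. Col16a1, which is found near microfibrils and in smooth muscle, rose in SS rats (0.90 ± 0.19, adjusted p = 0.00219). In null rats its change was -0.13 ± 0.19 (95% interval -0.51 to 0.26), and the 2 salt effects differed by -1.03 ± 0.26 (adjusted p = 0.0378). SS rat 1 on high salt and null rat 4 on low salt are the high values of their groups. Without both, the difference was -0.71 with adjusted p = 0.0588, and leaving out single rats ended this call in 10 fits (highest adjusted p 0.0744).

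Col20a1 had 79.4, 109.7, 112, 95 and 53.4 normalized counts in null rats on high salt, and 53, 85, 64.8, 110.1 and 89.4 in null rats on low salt. On high salt SS rats had 129.8, 89.2, 128, 85.2 and 106, and on low salt 49.7, 44.4, 73.9, 60.1 and 57.1. The SS rats of the diets did not overlap, and Col20a1 rose by 0.90 ± 0.22 (adjusted p = 0.00707). Col22a1 had 148, 153, 159, 113 and 174 normalized counts in null rats on high salt, and 109, 117, 109, 228 and 167 in null rats on low salt. Among SS rats the counts were 105, 106, 147, 114 and 147 on high salt and 81.2, 49.2, 101, 108 and 58.8 on low salt. Col22a1 had overlapping SS groups. This FACIT of tissue junctions rose by 0.68 ± 0.22 (adjusted p = 0.0382), a call that edgeR did not make (adjusted p = 0.0563). The type IX chains Col9a1, Col9a2 and Col9a3 and Col19a1 were called in no comparison, with log2 changes of -0.38 to 0.62 with salt in SS rats.

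The type IV genes had the lowest median change with salt in SS rats of the 8 classes. Their median log2 change with salt was 0.19 in null rats and 0.24 in SS rats, and between genotypes the median difference was -0.03 on high salt and -0.08 on low salt. The low-salt value became 0.19 with total scaling, which shifted the median over all genes by 0.27. Col4a1 was the only one of the 6 called in any of the 5 comparisons. Col4a1 had 18672, 22058, 19260.0, 22042 and 17982 normalized counts in null rats on high salt, and 19909, 19636, 15143, 15234 and 16519.8 in null rats on low salt. Its counts in SS rats were 23385, 21986, 16774, 18789 and 20175 on high salt and 13171, 17208, 13046, 17134 and 17262 on low salt. The SS ranges on high and low salt overlapped by the values of 3 low-salt rats. Col4a1, whose chain joins that of Col4a2 in nearly all basement membranes, rose by 0.38 ± 0.11 (adjusted p = 0.025) in SS rats, a call lost in 4 of the leave-one-out fits (highest adjusted p 0.0729). Its value in null rats was 0.22 ± 0.11 (adjusted p = 0.264).

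Col4a2 had 10493, 14509, 12110.3, 13073 and 11342 normalized counts in null rats on high salt, and 12409, 12397, 10104, 9246 and 10549 in null rats on low salt. In SS rats it had 13949, 13113, 10395, 11416 and 12134 on high salt and 8281, 10822, 7149, 11684 and 11172 on low salt. Its groups overlapped in each comparison, and the salt change was 0.17 ± 0.13 in null rats (adjusted p = 0.45) and 0.33 ± 0.13 in SS rats (adjusted p = 0.0766). Col4a5 had 2583, 2589.8, 2750.3, 2604 and 2753 normalized counts in null rats on high salt, and 2464, 2328, 2192, 2064 and 2157 in null rats on low salt. SS rats had 2695, 2452, 2239.5, 2558 and 2583 on high salt and 1867, 2449, 2114, 2431 and 2507 on low salt. The null rats of the diets did not overlap, yet the log2 change of 0.25 ± 0.08 did not pass (adjusted p = 0.0616). Col4a6 had 154, 127, 128, 100.3 and 146 normalized counts in null rats on high salt, and 88.7, 99.9, 118, 65.6 and 93 in null rats on low salt. The values in SS rats were 196, 179, 103, 153 and 145 on high salt and 93.3, 132, 54.3, 112 and 150.4 on low salt. These groups overlapped. Col4a6, which with Col4a5 forms the network of smooth muscle and collecting duct membranes, had log2 changes of 0.50 ± 0.23 in null rats (adjusted p = 0.188) and 0.56 ± 0.23 in SS rats (adjusted p = 0.0905).

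Col4a3 and Col4a4, whose chains form the mature glomerular basement membrane with that of Col4a5, were looked at with the others of the type. Col4a3 averaged 2019.8 ± 432 in null rats and 2089 ± 363 in SS rats on high salt, and 1911 ± 376 in null rats and 2144 ± 619 in SS rats on low salt. Its salt change in SS rats was -0.01 ± 0.17 (95% interval -0.37 to 0.35). That of Col4a4 was -0.27 ± 0.15 (95% interval -0.59 to 0.05).

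The type IV genes lie in head-to-head pairs, the genes of a pair being read in opposite directions. The windows of Col4a5 and Col4a6 share 0 bases, and the RefSeq map lists 1 gene between these genes. On GRCr8 the annotated starts of Col4a1 and Col4a2 lie 77 bases apart, those of Col4a3 and Col4a4 413 apart and those of Col4a5 and Col4a6 1415 apart. The Col4a1 window (chr16:84885347-84885646, plus strand) and the Col4a2 window on the other strand share 176 bases, so both starts fall within the sequence below. The Col4a3 window is at chr9:91323740-91324039, plus strand and shares 88 bases with that of Col4a4. Capitals mark CCAAT (or ATTGG) and GGGCGG (or CCGCCC), and both are written 5′ to 3′.
Col4a1: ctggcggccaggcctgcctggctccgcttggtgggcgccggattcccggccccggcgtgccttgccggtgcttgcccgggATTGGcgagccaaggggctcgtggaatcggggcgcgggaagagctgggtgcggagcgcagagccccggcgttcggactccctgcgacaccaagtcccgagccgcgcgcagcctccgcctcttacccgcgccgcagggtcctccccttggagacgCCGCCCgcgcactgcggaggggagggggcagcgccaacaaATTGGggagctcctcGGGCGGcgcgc
Col4a3: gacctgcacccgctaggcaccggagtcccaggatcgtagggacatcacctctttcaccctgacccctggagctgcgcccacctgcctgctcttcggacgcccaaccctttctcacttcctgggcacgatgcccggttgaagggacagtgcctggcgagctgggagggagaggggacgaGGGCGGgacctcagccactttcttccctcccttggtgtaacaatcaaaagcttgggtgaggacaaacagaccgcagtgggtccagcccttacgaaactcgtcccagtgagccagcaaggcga
The Col4a1 window holds 2 CCAAT and 2 GC boxes, and the Col4a3 window 1 GC box and no CCAAT.

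The multiplexins Col15a1 and Col18a1 encode basement membrane proteoglycan collagens, Col18a1 being the source of endostatin. Col15a1 had 625, 723, 750.1, 858 and 676 normalized counts in null rats on high salt, and 1139, 1263, 1017, 975 and 935 in null rats on low salt. On high salt SS rats had 1775, 1987, 992, 1022 and 1269.7, and on low salt 870.4, 637, 686, 972 and 901. No null rat on high salt overlapped a null rat on low salt or an SS rat on high salt, and the SS rats on high salt all lay above those on low salt. Col15a1 fell with salt in null rats (-0.55 ± 0.16, adjusted p = 0.0487) and rose in SS rats (0.75 ± 0.16, adjusted p = 0.00317). On high salt it was lower in null than in SS rats (-0.91 ± 0.16, adjusted p = 0.00216), and the salt effects differed by -1.31 ± 0.23 (adjusted p = 0.00652). The null salt call was lost in 13 leave-one-out fits (highest adjusted p 0.107) and with total scaling (-0.43, adjusted p = 0.161), and the other 3 calls in no leave-one-out fit. Col18a1 had 7076, 7382, 6649, 7402 and 7039 normalized counts in null rats on high salt, and 8701, 9135, 7311, 7134 and 7371 in null rats on low salt. Among SS rats the counts were 9897, 8352, 7272, 7339 and 7694 on high salt and 7402, 10166, 6320.0, 8955 and 8543 on low salt. The 4 groups overlapped, and Col18a1 was called in no comparison. Its salt change was -0.02 ± 0.11 in SS rats (95% interval -0.25 to 0.21).

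Type VIII collagen forms hexagonal networks under endothelium, from the chains of Col8a1 and Col8a2. Col8a2 had 326, 632, 587, 725 and 598 normalized counts in null rats on high salt, and 359, 347, 376, 249 and 197 in null rats on low salt. Its counts in SS rats were 295, 659.6, 234, 526 and 547 on high salt and 183, 121, 146, 212 and 237 on low salt. The lowest SS rat on high salt lay just within the low-salt range, and the lowest null rat on high salt lay below 3 of the 5 null rats on low salt. It rose by 0.90 ± 0.27 (adjusted p = 0.0476) in null rats and 1.26 ± 0.27 (adjusted p = 0.00252) in SS rats, the call in null rats being lost in 12 leave-one-out fits (highest adjusted p 0.12). Col8a1 had 153, 176, 157, 136 and 179 normalized counts in null rats on high salt, and 202, 232, 144, 224 and 239 in null rats on low salt. In SS rats it had 450.0, 344, 310.4, 177 and 161 on high salt and 155, 208, 183, 172 and 129 on low salt. The SS rats on high salt split into 3 values above and 2 within the range of SS rats on low salt. Col8a1 was higher on high than on low salt in SS rats (0.68 ± 0.22, adjusted p = 0.0363) and lower in null than in SS rats on high salt (-0.74 ± 0.22, adjusted p = 0.0381). Without SS rat 1 on high salt and null rat 4 on low salt, the adjusted p-values were 0.0938 and 0.123. Col10a1 had 7.72, 7.44, 6.93, 0 and 10.5 normalized counts in null rats on high salt, and 9.64, 7.47, 6.13, 11.6 and 3.52 in null rats on low salt. SS rats had 9.52, 5.48, 9.55, 7.61 and 1.28 on high salt and 13.3, 7.94, 10.9, 9.5 and 14.3 on low salt. Col10a1, the collagen of hypertrophic cartilage, was low throughout with overlapping groups, and no comparison called it.

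Type VII collagen forms anchoring fibrils at basement membranes. Col7a1 had 841, 617, 952, 868 and 877 normalized counts in null rats on high salt, and 457, 385, 421, 865 and 547 in null rats on low salt. The values in SS rats were 551, 445, 648, 843 and 712 on high salt and 201, 233, 330.4, 330.2 and 394 on low salt. The SS rats of the diets did not overlap, and the change was 1.11 ± 0.21 (adjusted p = 0.000948). In null rats the change was 0.68 ± 0.21 (adjusted p = 0.0536). Col26a1 had 39.7, 40.0, 41.6, 25.1 and 24.1 normalized counts in null rats on high salt, and 19.3, 20.6, 35, 56.1 and 21.1 in null rats on low salt. On high salt SS rats had 1.19, 14.1, 5.73, 9.89 and 21.8, and on low salt 18.2, 4.76, 14.1, 10.6 and 26. On high salt the null rats lay above all SS rats, at low values (1.94 ± 0.50, adjusted p = 0.0203). Col28a1 had 70.5, 80.0, 37.4, 68.6 and 47.1 normalized counts in null rats on high salt, and 28.9, 24.3, 32.4, 31.8 and 40.8 in null rats on low salt. Among SS rats the counts were 5.95, 20.3, 76.4, 55.5 and 37.2 on high salt and 7.27, 14.3, 27.2, 25.3 and 21 on low salt. The SS rats spread widely on high salt, with rat 1 low and rat 3 high, and Col28a1 was called in no comparison.

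The transmembrane collagens are single-pass membrane proteins. Col13a1 had 363, 578, 485, 441 and 487 normalized counts in null rats on high salt, and 364, 305, 356, 365 and 335 in null rats on low salt. Its counts in SS rats were 233, 241, 345, 479 and 310.1 on high salt and 240.0, 200.01, 264, 333 and 221 on low salt. On high salt the genotypes overlapped in the range 363 to 479. Col23a1 had 35.3, 27.9, 40.2, 62 and 64.9 normalized counts in null rats on high salt, and 33.7, 27.1, 35.9, 55 and 27.5 in null rats on low salt. In SS rats it had 5.95, 12.5, 11.5, 39.6 and 21.8 on high salt and 6.06, 7.94, 6.52, 17.9 and 16 on low salt. At low values, all null rats on low salt exceeded all SS rats on low salt, and on high salt the genotypes overlapped. The transmembrane collagens Col13a1, a component of cell adhesions, and Col23a1 were higher in null than in SS rats on high salt, by 0.58 ± 0.17 (adjusted p = 0.0332) and 1.47 ± 0.40 (adjusted p = 0.0267). These 2 calls and that of Col26a1 were lost without SS rat 1 on high salt. Col17a1 had 44.1, 57.7, 43.6, 71.3 and 42.9 normalized counts in null rats on high salt, and 87.7, 91.5, 87.5, 47.6 and 53.5 in null rats on low salt. SS rats had 64.3, 62.6, 46.8, 38.8 and 49.97 on high salt and 53.3, 124, 58.7, 63.3 and 76.5 on low salt. The groups overlapped in each comparison, and Col17a1, the collagen of hemidesmosomes, was called in no comparison.

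Ratios between chains were compared across groups within each rat, as ratios of normalized counts that share the lengths of the 2 genes. Col3a1 over Col1a1 was 2.06 ± 0.10 in null rats on high salt, 1.63 ± 0.21 in null rats on low salt, 2.17 ± 0.28 among SS rats on high salt and 1.60 ± 0.14 in SS rats on low salt (SD, n = 5 each). This ratio was thus higher on high salt on average in both genotypes, and the ranges of the diets overlapped in both. They were 1.97 to 2.23 on high and 1.49 to 1.98 on low salt in null rats, and 1.72 to 2.47 on high and 1.47 to 1.84 on low salt in SS rats. Col15a1 over Col18a1 was 0.102 ± 0.012 in null rats on high salt, 0.134 ± 0.005 in null rats on low salt, 0.172 ± 0.041 among SS rats on high salt and 0.101 ± 0.022 in SS rats on low salt. Col4a1 over Col4a2 stayed between 1.58 and 1.66 in the means of the 4 groups. These ratios were not tested.

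Some pairs of chains varied together among the rats of a group, and others did not. Most pairs were of one type, but Col3a1 with Col1a1 and Col15a1 with Col18a1 join chains of different types. Each rat's deviation from its group mean, on the log2 scale, was correlated over the 20 rats in 10 pairs of chains, with p-values from 100000 permutations within groups, adjusted over the 10. Col6a1 and Col6a2 gave Pearson's r = 0.96 and Spearman's rho = 0.95 (permutation tests, p = 4e-05 and 3e-05, adjusted p = 0.000133 and 0.0001), and r = 0.93 without the 2 rats farthest from the median in the first-named chain. Col4a1 and Col4a2 gave r = 0.94 and rho = 0.90 (permutation tests, p = 1e-05 for both, the smallest they can give, adjusted p = 5e-05 and 0.0001), and 0.94 without the 2 rats. Col6a1 and Col6a3 (0.91), Col3a1 and Col1a1 (0.83), Col4a3 and Col4a4 (0.76) and Col1a1 and Col1a2 (0.74) followed, with rho of 0.68 to 0.90. Their adjusted p was at most 0.00508 for r and 0.0131 for rho, with raw p of at most 0.00305 and 0.00918, and r without the 2 farthest rats was 0.70 to 0.89. Col5a1 and Col5a2 had r = 0.61 and rho = 0.65 (permutation tests, p = 0.0214 and 0.00254, adjusted p = 0.0306 and 0.00423). Without the 2 farthest rats r was 0.42 (permutation test, unadjusted p = 0.0114), so the size of r rests partly on them. Col4a5 and Col4a6 (r = 0.59, rho = 0.58) and Col15a1 and Col18a1 (r = 0.47, rho = 0.56) passed by rho (permutation tests, p = 0.0251 and 0.0316, adjusted p = 0.0313 and 0.0352) and not by r (permutation tests, p = 0.0405 and 0.0725, adjusted p = 0.0507 and 0.0805). Col8a1 and Col8a2 passed by neither (r = -0.49, rho = -0.48, permutation tests, p = 0.103 and 0.0776, adjusted p = 0.103 and 0.0776). As a description, r over all 903 pairs of the 43 genes had a median of 0.08, and the 15 pairs of type IV chains had a median of 0.59, with a lowest of 0.25. The other classes had lower medians or few pairs: 0.18 for the 55 fibrillar pairs (lowest -0.70), 0.11 for the 15 type VI pairs (lowest -0.52), 0.10 for the 36 FACIT pairs and -0.26 for the 3 network-forming pairs. All genes of a rat share its library and dissection.

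**Figure D5:**
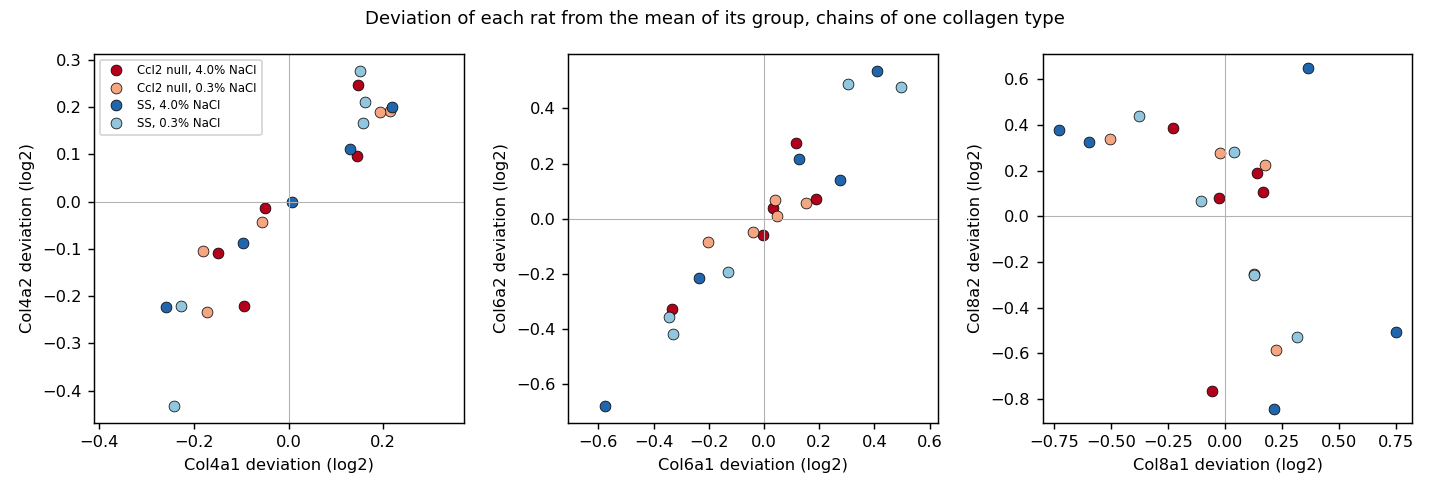
Deviation of each rat from the mean of its group (log2) for 3 pairs of chains, coloured by group. Points of Col4a1 and Col4a2 and of Col6a1 and Col6a2 follow a rising line (r = 0.94 and 0.96), and those of Col8a1 and Col8a2 do not (r = -0.49).

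Genes that make, process, bind or degrade collagen were counted from lists of known genes, and up to 4 of each list are named with values. The counts of these lists stand against 3.06% of all genes called higher with salt in null rats and 9.52% in SS rats. Of 20 genes of chain synthesis and folding in the endoplasmic reticulum, 3 rose with salt in SS rats: Fkbp10, a chaperone, by 0.51 ± 0.12 (adjusted p = 0.00559), and the prolyl 3-hydroxylase genes P3h1 and P3h3 by 0.33 and 0.35. P3h1, and Mmp14 below, are named after their values were seen. In null rats 2 of the 20 rose, P4ha1, a prolyl 4-hydroxylase subunit, by 0.76 ± 0.20 (adjusted p = 0.0308), and the lysyl hydroxylase Plod1 by 0.34 ± 0.08 (adjusted p = 0.0168). The 2 of 20 in null rats and 3 of 20 in SS rats are few genes, and no difference from these shares was tested. By limma 0 of the 20 were called between the genotypes on either diet. Over all genes 3.7% were called higher and 4.82% lower in null rats on high salt, and 0.452% and 0.105% on low salt. At an unadjusted p under 0.05, 4 of the 20 were higher and 2 lower on high salt, and 2 higher and 1 lower on low salt.

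Of 13 genes of processing and cross-linking, 1 rose with salt in null rats and 8 in SS rats, beside 3.06% and 9.52% of all genes. The lysyl oxidase family gene Loxl1 had 1985, 2539, 2417, 2865 and 2182 normalized counts in null rats on high salt, and 2712, 2332, 2195, 1650.3 and 2074 in null rats on low salt. SS rats had 2549, 4364, 2426, 2461 and 3426 on high salt and 1403, 1100.1, 1168, 1449.6 and 1645 on low salt. Every SS rat on low salt lay below every rat of the other groups, by a small margin for null rat 4 on low salt. Loxl1 rose by 1.14 ± 0.15 (adjusted p = 5.07e-05) in SS rats, and its salt effect was lower in null rats (-1.01 ± 0.22, adjusted p = 0.0188). Pxdn, the peroxidase that cross-links type IV collagen, rose by 0.78 ± 0.10 (adjusted p = 2.07e-05) in SS rats and differed in salt effect by -0.54 ± 0.13 (adjusted p = 0.034). Pcolce, an enhancer of procollagen processing, rose by 1.00 ± 0.16 (adjusted p = 0.000234), with a difference in salt effect of -0.90 ± 0.22 (adjusted p = 0.0342). Adamts2, which removes the amino propeptide, rose by 1.09 ± 0.24 (adjusted p = 0.00337).

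Of 8 small leucine-rich proteoglycans that coat fibrils, 2 rose with salt in SS rats (9.52% of all genes did), Dcn (decorin) by 1.39 ± 0.16 (adjusted p = 1.31e-05) and Lum (lumican) by 0.83 ± 0.29 (adjusted p = 0.0478). On high salt Ogn (osteoglycin) was higher in null than in SS rats (0.93 ± 0.28, adjusted p = 0.0449), and Aspn (asporin) differed by 0.63 ± 0.25 (adjusted p = 0.116). SS rat 1 on high salt was the lowest of its group in both. It had 577 for Ogn, against 1778 to 2574 in the other SS rats, and 114 for Aspn, against 217 to 323. Dcn had 6898 ± 1232 in null rats on high salt, 4731 ± 891 in null rats on low salt, 8466 ± 2167 among SS rats on high salt and 3185 ± 488 in SS rats on low salt (SD, n = 5 each). Of 15 laminin, nidogen and heparan sulfate proteoglycan genes of the basement membrane, 5 rose in SS rats, beside the same 9.52%, led by the laminin chain Lama2, which rose in null rats (0.79 ± 0.20, adjusted p = 0.026) and in SS rats (1.08 ± 0.20, adjusted p = 0.000974). The laminin chain Lamb3 was lower in null than in SS rats on high salt, with a log2 difference of -1.21 ± 0.28 (adjusted p = 0.013). SS rat 1 had the highest value there, 393 against 97.4 to 230 in the other SS rats, and null rats had 59.4 to 92.1. Lama1 fell with salt in null rats (-0.63 ± 0.14, adjusted p = 0.0124).

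Among 11 collagen receptors and uptake genes, 3 rose with salt in SS rats, beside 9.52% of all genes. Itga11, the integrin chain that binds fibrillar collagen on fibroblasts, had 61.7, 105, 73.4, 92.4 and 95.3 in null rats on high salt, and 84.8, 123, 103, 83.6 and 115 in null rats on low salt. SS rats showed 244, 259, 114, 103 and 131 on high salt and 55.8, 41.3, 43.5, 52.8 and 62.2 on low salt. No SS rat on high salt fell within the range of those on low salt, and the change was 1.62 ± 0.23 (adjusted p = 9.69e-05), with a difference in salt effect of -1.88 ± 0.33 (adjusted p = 0.00595). The collagen VI receptor gene Antxr2 rose in null rats (0.64 ± 0.18, adjusted p = 0.0403) and SS rats (0.98 ± 0.18, adjusted p = 0.000856), and its relative Antxr1 was higher in null than in SS rats on high salt (0.75 ± 0.22, adjusted p = 0.038). For Antxr1, SS rat 1 on high salt had 104, against 222 to 329 in the other SS rats, and null rats had 327 to 435. The endocytic collagen receptor Mrc2 rose by 1.09 ± 0.19 (adjusted p = 0.00042) in SS rats and was higher in null than in SS rats on low salt (0.86 ± 0.19, adjusted p = 0.0357). Of 7 degradation genes and inhibitors, 5 rose in SS rats, again beside 9.52%: Timp1 by 1.05 ± 0.15 (adjusted p = 9.69e-05), Ctsk, a collagen-cleaving cathepsin, by 0.82 ± 0.13 (adjusted p = 0.000215), Mmp2 by 0.75 ± 0.15 (adjusted p = 0.00217), and Mmp14 and Timp2 by 0.43 and 0.41. Timp1, a protease inhibitor, had 461, 495, 452, 529 and 418 in null rats on high salt, against 1162, 1747, 1136, 849 and 830.2 in SS rats on high salt, without overlap (-1.23 ± 0.15, adjusted p = 8.19e-05).

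Some lists of cell markers moved in the same groups and others did not. The comparisons called 3.06% of all genes higher with salt in null rats, 9.52% with salt in SS rats and 0.452% in null rats on low salt. Of 8 fibroblast markers 1 rose with salt in null rats, 5 in SS rats (Pdgfra, Dpt, Fbln1, Clec3b and Cygb), and 2 were higher in null than in SS rats on low salt. Their summed level ranged from 12025 to 17167 in null rats on high salt, 11144 to 13197 in null rats on low salt, 10687 to 17898 in SS rats on high salt and 6642 to 9612 in SS rats on low salt. Pdgfra, a receptor of interstitial fibroblasts, had 1797, 2304, 2171, 2522 and 2084 in null rats on high salt, and 1543, 1346, 1394, 1207 and 1177 in null rats on low salt. SS rats showed 1429.6, 2116, 1516, 2427 and 2537 on high salt and 1189, 1011, 1089, 1036 and 1134 on low salt. The diets did not overlap in either genotype. The fibroblast sum thus had the same low group, SS rats on low salt, as the fibrillar sum, and none of the 8 markers was at 0. Of 7 smooth muscle markers 0 were called with salt in SS rats by limma, and 0 at an unadjusted p under 0.05. Of 7 pericyte and mesangial markers 2 were called higher with salt in SS rats and 0 lower. The log2 changes of the list had a median of 0.14, with 4 above 0 and 3 below. Mean values in SS rats on high and low salt were 2167 and 2301 for Rgs5, 1053 and 1074 for Cspg4, and 1107 and 1123 for Notch3. The log2 change with salt was for Pdgfrb 0.41 ± 0.19 (adjusted p = 0.198) in null rats and 0.87 ± 0.19 (adjusted p = 0.0035) in SS rats, and for Kcnj8 0.46 ± 0.24 (adjusted p = 0.253) in null rats and 0.85 ± 0.24 (adjusted p = 0.0164) in SS rats. Pdgfrb, a receptor of perivascular cells, averaged 5219.9 ± 747 in null rats on high salt, 3897 ± 324 in null rats on low salt, 4474 ± 1114 among SS rats on high salt and 2494 ± 837 in SS rats on low salt (SD, n = 5 each), the last again the lowest. The sum of the 7 ranged from 15221 to 18310 in null rats on high salt, 11344 to 15253 in null rats on low salt, 8824 to 14886 among SS rats on high salt and 9202 to 13463 in SS rats on low salt.

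Of 6 T cell and 6 macrophage markers 0 were called higher with salt in null rats by limma (0 and 1 at an unadjusted p under 0.05), and 6 and 4 rose in SS rats, beside 3.06% of all genes in null rats and 9.52% in SS rats, the T cell sum ranging from 653 to 887 in null rats on high salt, 693 to 900 in null rats on low salt, 1047 to 1703 among SS rats on high salt and 530.2 to 854 in SS rats on low salt. Of 7 loop and distal tubule markers 2 fell with salt in null rats and 6 in SS rats, beside 2.45% and 7.73% of all genes. Their sum ranged from 130950 to 149510 in null rats and 91014 to 142969 in SS rats on high salt, and 131976 to 261317 in null rats and 209064 to 303021 in SS rats on low salt. Of the 4 cartilage markers measured, 3 were tested and 0 called, at sums of 71.4 to 211 over all rats. With salt in SS rats, 2 of 8 blood endothelial markers were called higher, and 0 of 7 podocyte and 0 of 7 proximal tubule markers were called. Of 6 lymphatic markers 2 were called higher and 1 lower. Of 7 collecting duct markers and of 4 tested adipocyte markers 1 each was called lower, and 0 of 4 Schwann cell markers were called. These stand beside 9.52% of all genes higher and 7.73% lower. The part of these cells in the collagen results was not tested.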

How the data were processed

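Poly A RNA of the microvessels of 20 rats was sequenced after a TRIzol extraction and a DNase I step, per the labels' protocols. The submitters' processing notes name Trim Galore, MultiQC, STAR 2.7.11b, featureCounts 2.0.6 of Subread, DESeq2 1.44 and build mRatBN7.2. Their settings, strandedness included, are not stated. The deposited table holds a signal, the authors' normalized counts, in which dividing by the smallest value of a library gave whole reads for 100% of values within 1e-06. Depth was 22035178 to 47851233 reads, and each listed gene has at least 100 reads in all.

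Genes with a value of at least 10 in at least 5 libraries (16153, 519 being removed) were tested on log2(value + 1) with limma 3.58.1 (lmFit, eBayes with trend) in R 4.3.3, as 4 group means over all 20 libraries, with Benjamini-Hochberg adjustment in each of 5 comparisons. The pseudocount understates changes of low genes. The fits were also run on simulated data with independent errors. Genes of a rat share its library, so no result here rests on that run. Errors of log2 changes are standard errors, and p-values measure the spread between these rats. Alternatives were other pseudocounts (0.5, 8), filters and scalings, the compared groups alone, a replicate block, edgeR 4.0.16 and DESeq2 1.42.0 on recovered reads, and leaving out rats. On the reads, edgeR called 956 genes with salt in null rats, 2793 with salt in SS rats, 1441 and 63 between genotypes on high and low salt, and 439 in the difference of salt effects.

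The members and the gene lists were chosen with earlier results of these data known. Values in every rat are given for up to 4 members of each class with the smallest p over the comparisons, and up to 4 genes of each partner list are named with values. A gene that this rule names is not reported here. Salt in SS rats and the low-salt genotype comparison share the SS rats on low salt, and salt in null rats shares its groups with both genotype comparisons. Promoter windows come from RefSeq on GRCr8, another build than the one the reads were mapped to.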

Additional observations from a re-analysis of the deposited data

Results flagged for a closer look

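In 3 of the 132 groups of 5 rats examined (33 genes shown by rat, 4 groups each), 1 rat lay far from the other 4 by Dixon's criterion (0.71 for 5 values), which chance alone meets in about 1 of 20 groups. SS rat 3 on high salt had the lowest Col5a1, at 866 normalized counts against 1302 to 1389 in the other 4. Null rat 4 on low salt had the highest Col16a1, at 1053 against 668 to 747, and the highest Col14a1, at 193 against 161 to 168.

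The salt effect differed between null and SS rats, by limma's test of the difference, in Col24a1 (-2.24 on the log2 scale), Col15a1 (-1.31), Col6a5 (-1.29), Col16a1 (-1.03), Col6a6 (-0.92) and Col3a1 (-0.79). In Col24a1 and Col15a1 the salt effects had opposite signs, each past the threshold. The calls in null rats were lost in 8 leave-one-out fits for Col24a1 and 13 for Col15a1. That of Col15a1 was also lost with total scaling (limma, adjusted p = 0.161). Without SS rat 1 on high salt and null rat 4 on low salt together, Col24a1, Col15a1 and Col6a5 were still called, and Col3a1, Col16a1 and Col6a6 had adjusted p-values of 0.0548, 0.0588 and 0.0654.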

How the results depend on the processing

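The 24 higher calls with salt in SS rats stayed between 18 and 33 under every alternative and 19 to 24 with 1 rat left out. The smaller counts moved more. With total scaling the calls were 10 higher with salt in null rats, 29 higher in null rats on low salt and 16 lower in the difference of salt effects. Over all 16153 genes the same fits called 918, 4053 and 1053, and 8767 higher with salt in SS rats, where 33 collagens were called. That scaling shifted the median over all genes by 0.12 with salt in null rats, 0.39 in SS rats, 0.27 between genotypes on low salt and -0.27 in the difference. Relative to that shift the fibrillar median of 1.21 is close to the 0.82 of the deposited scaling. Without mitochondrial genes in the total the 3 collagen counts were 2, 14 and 10, beside 431, 351 and 423 over all genes. With DESeq2 they were 11, 14 and 11, beside 883, 359 and 541 over all genes. With the compared groups alone, 14 collagens were called higher with salt in null rats and 5 higher in null rats on low salt. The difference of salt effects needs all groups. Counts over all genes are not given for this setting, so these 2 counts have no share to stand beside. The higher calls in null rats on high salt were 1 with the filter of 100, with the compared groups alone and without both libraries that stand apart. Leaving out 1 rat gave 1 to 9 higher and 0 to 3 lower calls with salt in null rats, 0 to 4 higher and 3 to 5 lower in null rats on high salt, 0 to 14 higher on low salt and 2 to 9 lower in the difference. Of the correlations, Col4a5 with Col4a6 had r = 0.60 with pseudocount 8 (permutation test, adjusted p = 0.0482), and Col15a1 with Col18a1 r = 0.66 with total scaling (permutation test, adjusted p = 0.0185). The Ccl2 difference on low salt was 0.14 with total scaling, and leaving out 1 rat gave -0.23 to -0.01 on low and -1.63 to -1.29 on high salt. The cause of these moves was not tested.

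Rats with the same number did not deviate together: the correlations of same-numbered rats ran from -0.16 to 0.14 and 5 of 30 exceeded 0.1. A replicate block gave 6 higher calls with salt in null rats, 23 in SS rats, 10 on low salt and 5 lower in the difference. Counts over all genes are not given for the replicate block, so these have no share to stand beside.

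Depth limits Col10a1, Col2a1, Col9a3, Col6a4, Col23a1 and Col26a1, which averaged under 35 normalized counts.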
